A study of Mus musculus with 9 samples.

Results

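The genes described here are the families that copy DNA, divide the cell and decide whether a cell enters the cycle, measured in mouse regulatory T (Treg) cells. They were chosen by symbol: Mcm2 to Mcm7, numbered Cdk genes, symbols beginning with Cdkn, cyclins of the A, B, D and E types, numbered E2f, Cdc and Kif genes, symbols beginning with Cenp, and Mki67, Top2a, Pcna, Birc5, Aurka, Aurkb, Plk1, Tyms, Rrm1 and Rrm2. The rule found 123 of the 13698 genes measured. Of these, 13 act in DNA replication, 49 in mitosis and 23 in G1 control, 85 in all. The other 38 match by name alone and have other functions, such as transport kinesins, transcriptional Cdk kinases and Cdc42 with its effectors. Bub1 also belongs to the rule but was not among the genes measured.

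RNA was sequenced from sorted Treg cells of spleen and lymph node in 9 libraries, 3 in each of 3 groups, from female mice of a strain background labelled C56Bl6/129 mix. The deficient cells were YFP+MHCII- cells of mice with the genotype LRFffThpokff Foxp3 Cre-YFP/X, in which Cre made from a Foxp3 allele deletes the genes of Thpok (Zbtb7b) and LRF (Zbtb7a) in the cells that use that allele. The animal controls were YFP-MHCII-CD25hi cells of the same 3 mice, so they carry the floxed alleles but use the unmodified Foxp3 allele and make no Cre. The genetic controls were YFP+MHCII- cells of 3 other mice, WT Foxp3 Cre-YFP/X, which make the same Cre-YFP and have no floxed alleles. The 2 control groups therefore differ in gate, in Foxp3 allele and in mouse. Neither the labels nor the design give ages, sort dates or sequencing batches.

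As background, the Mcm2 to Mcm7 proteins form the ring-shaped helicase that is loaded on origins in G1 and unwinds DNA in S phase, with Cdc45 as a cofactor and Pcna as the sliding clamp of the polymerases. D-type cyclins with Cdk4 and Cdk6, and E-type cyclins with Cdk2, phosphorylate the retinoblastoma protein and release E2F factors, and the Cdkn proteins inhibit these kinases. Cyclin B with Cdk1 drives entry into mitosis, Aurora and Polo kinases and kinesins build and correct the spindle, and the anaphase-promoting complex with Cdc20 ends mitosis. Part of the Treg pool of lymphoid organs divides in the steady state, and transcripts of the mitotic genes are made mainly in cells from S phase to mitosis.

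Promoters of cell cycle genes are known for short sequence words, and 6 promoters are shown so that mitotic, replication and G1 genes can be compared. Promoter windows were taken from RefSeq (GRCm38.p6), from 250 bases before to 50 bases after each transcription start, for 105 of the 123 genes. The words searched on both strands were TTTGAA (the cell cycle homology region, CHR), CCAAT (the CCAAT box) and, for E2F sites, TTTGGCGC, TTTCCCGC, TTTCGCGC and TTTGCCGC. Each line below gives the 120 bases before the start, 5′ to 3′ on the strand of the gene, with the words found in capitals.
Cdk1: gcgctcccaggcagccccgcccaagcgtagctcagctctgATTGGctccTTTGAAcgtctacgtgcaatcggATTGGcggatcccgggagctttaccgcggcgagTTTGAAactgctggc
Cdc20: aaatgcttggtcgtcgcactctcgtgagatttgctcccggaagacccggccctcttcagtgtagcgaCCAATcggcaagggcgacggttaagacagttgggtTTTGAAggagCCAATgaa
Top2a: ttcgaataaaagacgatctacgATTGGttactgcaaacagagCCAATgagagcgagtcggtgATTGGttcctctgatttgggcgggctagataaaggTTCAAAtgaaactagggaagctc
Mcm3: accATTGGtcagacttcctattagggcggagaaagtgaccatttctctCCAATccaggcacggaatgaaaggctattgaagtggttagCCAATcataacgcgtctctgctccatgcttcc
Mcm6: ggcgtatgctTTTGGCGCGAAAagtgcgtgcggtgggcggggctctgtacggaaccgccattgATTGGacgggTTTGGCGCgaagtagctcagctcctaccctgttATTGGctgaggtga
Cdk4: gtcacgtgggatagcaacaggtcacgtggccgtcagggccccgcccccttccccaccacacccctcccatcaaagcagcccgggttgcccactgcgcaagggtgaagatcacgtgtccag

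The windows lie at chr10:69352913-69353032 (minus strand) for Cdk1, chr4:118437344-118437463 (minus) for Cdc20, chr11:99024190-99024309 (minus) for Top2a, chr1:20820313-20820432 (minus) for Mcm3, chr1:128359706-128359825 (minus) for Mcm6 and chr10:127063415-127063534 (plus) for Cdk4. The 3 mitotic genes each hold a CHR word close to the start, at 15, 18 and 23 bases before it for Cdk1, Cdc20 and Top2a, together with CCAAT boxes. The full 300-base window of Cdk1 also holds 1 E2F word outside the bases shown. Mcm3 holds 3 CCAAT boxes and no CHR word, and its full 300-base window also holds 2 E2F words that are not within the bases shown. In Mcm6 there are 2 CCAAT boxes and 3 E2F words, of which the pair at 110 and 106 bases before the start overlap on opposite strands. The Cdk4 window holds none of these words. Over the full 300-base windows, a CHR word was found at 22 of 51 starts of mitosis genes (43.1%) and at 17.9% of all 32851 starts in the RefSeq table. CHR and CCAAT words occurred together at 33.3% of the mitosis starts and at 6.95% of all starts. E2F words were found at 5 of 14 starts of replication genes (35.7%), at 22.7% of G1 control starts, at 11.8% of mitosis starts and at 2.26% of all starts. Among genes of other functions the shares were 13.9% for CHR, 33.3% for CCAAT and 2.78% for E2F. A match describes these letters and is not a measured binding site.

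The values are counts scaled to library size (CPM) that the authors had normalized and logged, so the depth of each library is unknown. Zbtb7b checked the labels: it measured 92.1, 103 and 149 CPM in genetic controls, 0.366, 0.266 and 0.147 CPM in deficient cells and 76.9, 106 and 98.6 CPM in animal controls (limma adjusted p = 0.000103 and 8.75e-05 for deficient cells against genetic and animal controls). Zbtb7a measured 90.3 ± 21.0, 89.5 ± 12.6 and 112 ± 19.3 CPM (mean ± SD, n = 3) in the same order, a value per gene that cannot show the loss of single exons. The 10 Treg and T cell markers listed were all above 1 CPM in every library, but not all were even between groups. Cd4 measured 866 ± 175 CPM in genetic controls, 355 ± 25.7 in deficient cells and 889 ± 87.7 in animal controls. It was lower in deficient cells than in either control (limma adjusted p = 0.00488 and 0.00338). Il2ra was lower in deficient cells than in animal controls (adjusted p = 0.0497), and Cd3e was higher than in genetic controls (adjusted p = 0.0398). Foxp3 itself was between 24.8 and 38.1 CPM in the 6 libraries of YFP-positive cells and between 754 and 1000 CPM in animal controls. Of other cell types, the summed B cell markers (7 of 10 measured, mostly Ighm) were 692 to 1102 CPM for the genetic controls, 690 to 912 CPM for the deficient cells and 1312 to 1832 CPM in animal controls. Cd79b had another order, at 12.6 to 22.5, 45.0 to 67.1 and 39.6 to 74.3 CPM. Its deficient libraries lay above all genetic controls (limma adjusted p = 0.0983) and overlapped with the animal controls. The plasma cell markers (4 of 6, mostly Xbp1) summed to 236 to 388, 144 to 192 and 220 to 367 CPM. The NK cell markers (5 of 8) summed to 16.4 to 51.5, 59.3 to 126 and 24.9 to 32.2 CPM. In deficient cells the NK sum was mostly Prf1 (50.3, 84.2 and 109 CPM). The groups overlapped in every comparison for Klrb1c, Klrk1, Eomes and Gzma. Myeloid markers (5 of 14) reached 452 CPM in genetic control 8619 and lay between 94.4 and 168 CPM in the other 8 libraries, and the erythroid and platelet markers (6 of 10) summed to 76.1 CPM in that library, 40.8 CPM in deficient library 232614 and at most 1.13 CPM elsewhere. Where these move with a result below, their part in it was not tested. In such bulk samples, fewer cycling cells and less RNA per cycling cell cannot be told apart.

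No single member of these families passed the test between any pair of groups. With limma over all 13698 genes, 0 of the 123 members passed an adjusted p of 0.05 in deficient cells against genetic controls, where 0.869% of all genes (119) did. The count was also 0 of 123 against animal controls, where 0.891% of all genes (122, and 0 with the mouse as a fixed replicate block) passed, and 0 of 123 between the control groups, where 0.0365% (5 genes) passed. The lowest adjusted p of a member was 0.15 for Cdc45 against genetic controls, 0.0962 for Cenpv against animal controls and 0.415 for Cdk17 between the controls. At an unadjusted p under 0.05, 11 members (8.94%) differed from genetic controls, where 10.6% of all genes did: 4 were higher in deficient cells and 7 lower, beside 4.96% and 5.66% of all genes. Against animal controls the count was 15 (12.2%), beside 11.9% of all genes: 9 were higher and 6 lower, beside 5.57% and 6.34%. Between the controls it was 9 (7.32%), beside 6.62% of all genes: 7 were higher in genetic controls and 2 lower, beside 3.44% and 3.18%. These shares are near the background. The 3 comparisons share libraries, so their counts are not independent of each other.

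Groups whose 3 libraries did not overlap with the 3 of the other group were counted as well, since 3 against 3 libraries cannot reach an exact permutation p below 0.1. Deficient cells and genetic controls did not overlap for 18 members (14.6%), 9 in each direction, and for 15.7% of all genes. Deficient cells and animal controls did not overlap for 15 members (12.2%), beside 15.9% of all genes. The controls did not overlap for 16 members (13.0%), beside 10.4% of all genes. Over the 63 members that were at or above 1 CPM in every library, the median log2 difference was -0.07 for deficient minus genetic control, 0.09 for deficient minus animal control and 0.16 for genetic minus animal control. The medians over all genes were 0.04, 0.04 and -0.02. Among the members, log2 differences of single genes are given below only for these 63, because a difference against the lowest values depends on how those values were set.

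**Figure D1:**
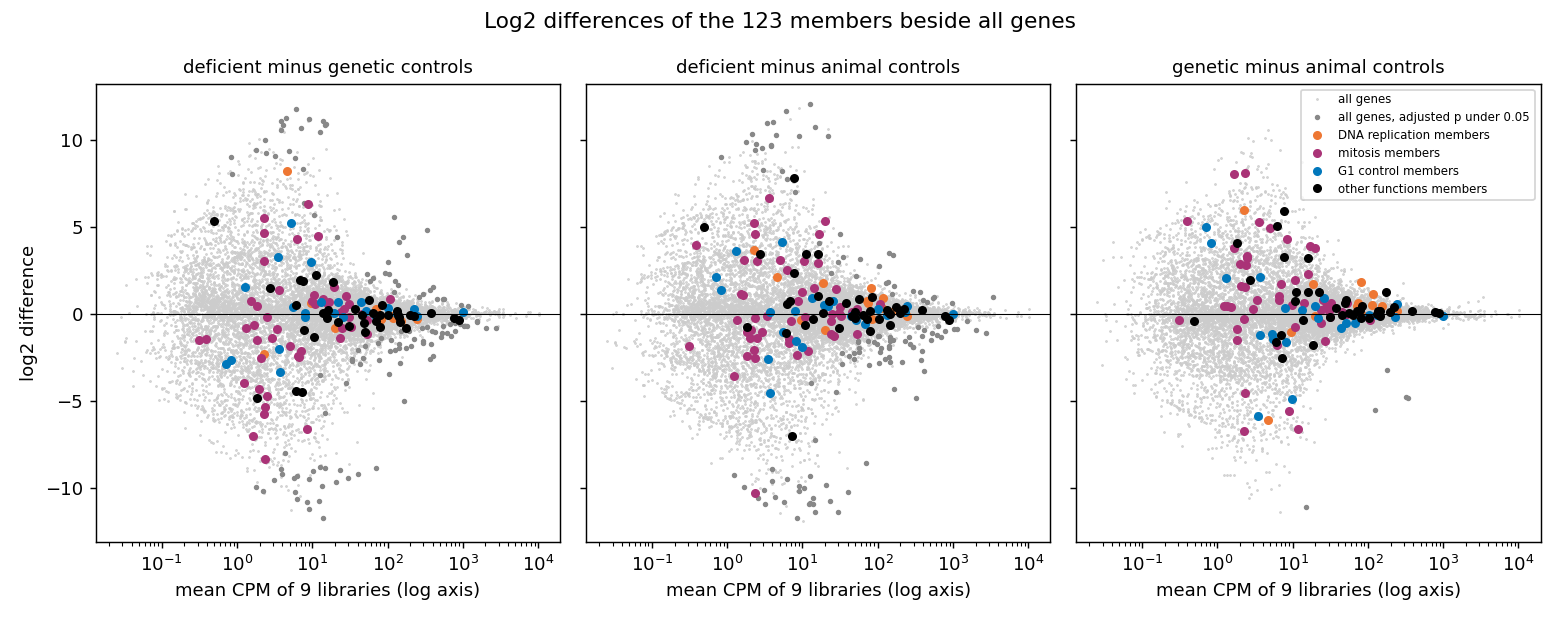
Log2 difference (y axis) of every gene against its mean CPM over the 9 libraries (x axis, log scale) for the 3 comparisons; pale grey dots are all genes, dark grey dots those with an adjusted p under 0.05, and coloured dots the 123 members by subset. Members lie on both sides of 0, spread widely at low levels, and 0 of 123 passed the adjusted threshold in each comparison.

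The subsets differed in level and in how steadily they were detected. The median of the members' mean levels was 74.3 CPM for replication genes, 13.2 CPM for G1 control genes and 6.56 CPM for mitosis genes, against 19.7 CPM over all genes. Of the replication genes, 10 of 13 (76.9%) were at or above 1 CPM in all 9 libraries, of the G1 control genes 13 of 23 (56.5%) and of the mitosis genes 14 of 49 (28.6%), against 58.7% of all genes. For 33 of 49 mitosis genes (67.3%), at least 1 group held libraries both under and above 1 CPM, beside 36.6% of all genes. The median SD within groups was 3.47 on the log2 scale for mitosis genes, 1.09 for G1 control genes, 0.88 for replication genes and 0.83 for all genes. A mitosis gene near the lowest value in a library and at several CPM in another of the same group was thus common in these data. Between 10 and 20 of the 49 mitosis genes were under 1 CPM in a given library: 10 to 18 in the genetic controls, 16 to 18 in the deficient cells and 16 to 20 in the animal controls.

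**Figure D2:**
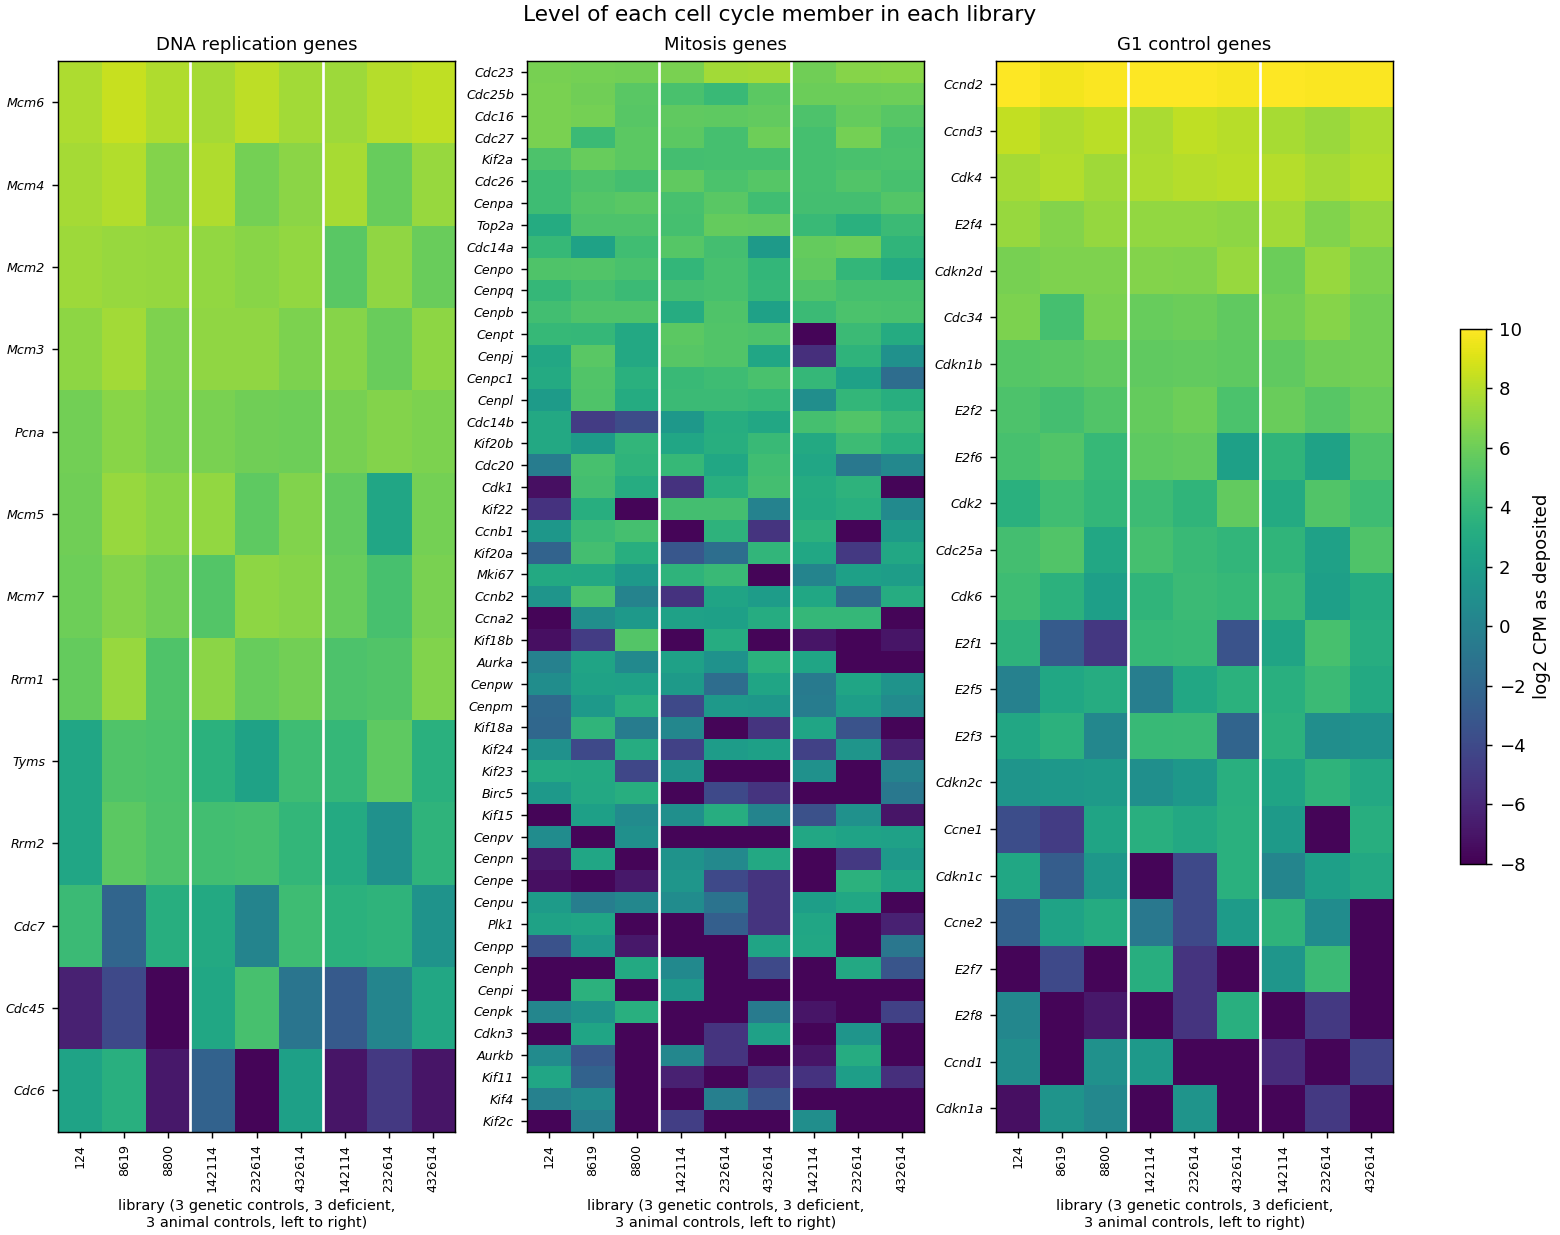
Deposited log2 CPM (colour) of the 13 replication, 49 mitosis and 23 G1 control genes (rows, ordered by mean level) in the 9 libraries (columns, 3 genetic controls, 3 deficient and 3 animal controls). The replication panel is mostly even from Mcm6 down to Rrm2, and the lower part of the mitosis panel is a patchwork of present and absent values in all 3 groups.

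Summed over each of the 3 cycle subsets, the groups overlapped in every comparison. The 13 replication genes together gave 997, 1523 and 938 CPM in genetic controls 124, 8619 and 8800, 1108, 956 and 929 CPM in deficient libraries 142114, 232614 and 432614, and 767, 725 and 1014 CPM in animal controls of the same mouse numbers. Values of single genes below follow this order of libraries. The highest sum belonged to genetic control 8619, the library with the high myeloid and erythroid markers, and the 3 groups overlapped. That library was the highest of the 9 for 8 of 13 replication genes (61.5%) and for 11 of 49 mitosis genes (22.4%), against 12.1% of all genes. The 49 mitosis genes summed to 603, 856 and 650 CPM, 635, 776 and 755 CPM, and 594, 746 and 534 CPM, with overlap of all groups. Ccnd2 was the largest single part of the sum of the 23 G1 control genes. These genes gave 2037, 1725 and 1888 CPM, 2019, 2242 and 2016 CPM, and 2128, 1906 and 1993 CPM, again with overlap between every pair of groups. Sums over wider sets did not overlap everywhere. The 85 cycle genes together gave 3476 to 4104 CPM for genetic controls, 3700 to 3974 CPM for deficient cells and 3377 to 3541 CPM for animal controls, so that all deficient libraries were above all animal controls. The 38 genes of other functions gave 4264 to 4635 CPM for genetic controls, above the 3732 to 4095 CPM of deficient cells and the 3913 to 4086 CPM of animal controls. All 123 members gave 7740 to 8739, 7529 to 7857 and 7407 to 7463 CPM, with the animal controls below both YFP-positive groups. No p is given for these sums, because the members were chosen with results known.

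Among the replication genes, Mcm6 had the highest level per kilobase of exon (GENCODE M21), at 52.5 CPM per kb over all libraries, followed by Mcm4 at 42.3, Pcna at 34.5 and Mcm3 at 30.5. Mcm6 measured 225, 360 and 235 CPM in genetic controls, 190, 289 and 183 CPM in deficient cells and 162, 251 and 312 CPM in animal controls. All 3 groups overlapped, and the log2 difference was -0.31 ± 0.29 (SE) against genetic and -0.11 ± 0.29 against animal controls, the latter with a 95% interval of -0.76 to 0.53. Mcm2, whose gene lies at chr6:88883474-88898780 (GRCm38), measured 166, 147 and 139 CPM, 136, 111 and 138 CPM, and 42.1, 128 and 58.7 CPM. Its animal controls were low in mice 142114 and 432614 and lay entirely below the genetic controls, with a log2 difference of 1.14 ± 0.36 for genetic minus animal control (adjusted p = 0.561). The deficient cells lay just below all genetic controls (-0.24 ± 0.36, adjusted p = 0.876) and overlapped with the animal controls (0.91 ± 0.36, adjusted p = 0.355). Mcm5 measured 69.4, 147 and 112 CPM, 135, 45.9 and 95.1 CPM, and 51.7, 6.33 and 77.3 CPM, where animal control 232614 stood far below the other 8 libraries. Mcm3 ranged from 59.5 to 178 CPM over the 9 libraries, Mcm4 from 55.8 to 245 CPM and Mcm7 from 26.6 to 123 CPM. For each of these 3 subunits the groups overlapped, and the log2 differences of deficient cells from either control lay between -0.38 and 0.61.

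For the clamp and the nucleotide enzymes, the groups overlapped apart from Rrm2 in deficient cells against animal controls. Pcna measured 70.2, 111 and 83.7 CPM, 81.9, 68.2 and 65.4 CPM, and 77.8, 102 and 86.6 CPM. Its deficient libraries were at the low end of a range shared by all groups, with log2 differences of -0.28 ± 0.24 against genetic and -0.30 ± 0.24 against animal controls (adjusted p = 0.767 and 0.715). Rrm2, the small subunit of the ribonucleotide reductase that makes deoxynucleotides, measured 6.23, 43.2 and 31.4 CPM, 22.9, 25.7 and 15.4 CPM, and 8.06, 2.17 and 13.1 CPM. All 3 deficient libraries lay above all 3 animal controls, by 1.77 ± 0.87 on the log2 scale (adjusted p = 0.461), and within the range of the genetic controls. Rrm1, the large subunit, measured 52.4, 150 and 33.6 CPM, 117, 55.9 and 72.1 CPM, and 31.9, 33.8 and 94.9 CPM, and its groups overlapped. Tyms, the thymidylate synthase, ranged from 5.05 to 45.8 CPM with overlap in each comparison.

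Cdc45, which joins the Mcm ring to make it an active helicase, had the lowest p of the subset. It measured 0.012, 0.0603 and 0.00457 CPM in genetic controls, 6.47, 26.9 and 0.487 CPM in deficient cells and 0.136, 1.13 and 6.77 CPM in animal controls, where 0.00457 CPM is the lowest value of the table. The genetic controls were near that lowest value in all 3 libraries and lay below both other groups, which came from the same mice and overlapped with each other. The adjusted p was 0.15 for deficient against genetic controls and 0.673 between the controls, so neither difference passed. Cdc6, which loads the Mcm ring, and Cdc7, the kinase that fires origins, were under 1 CPM in some libraries and above it in others. In all, 1 of 13 replication genes had an unadjusted p under 0.05 against genetic controls, 1 against animal controls and 2 between the controls (7.69%, 7.69% and 15.4%, beside 10.6%, 11.9% and 6.62% of all genes).

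**Figure D3:**
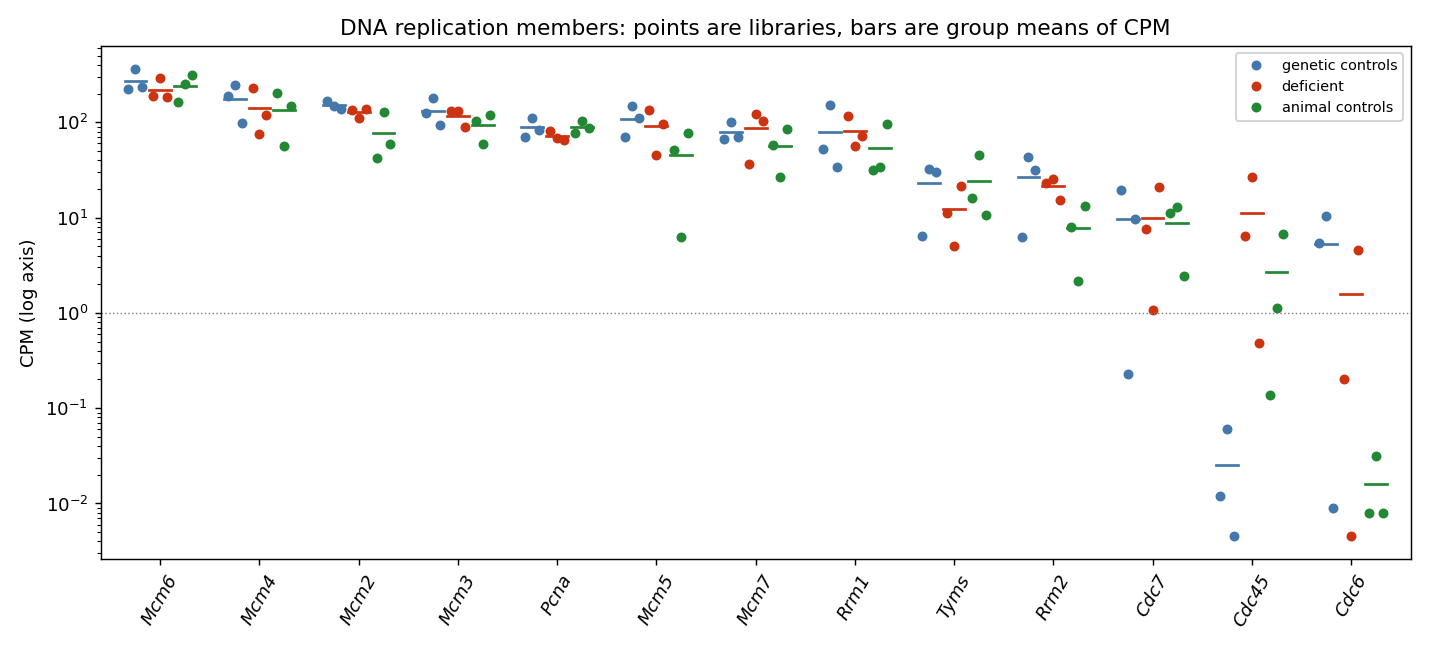
CPM (log axis) of the 13 replication genes in each library (points) with the group mean (bar), coloured by group. The groups overlap for the Mcm genes except Mcm2, whose genetic controls are above both other groups, and Cdc45 is near the lowest value of 0.00457 CPM in the 3 genetic controls.

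In G1 control, cyclin D2 and its kinase Cdk4 had the highest levels per kilobase. Ccnd2, cyclin D2 at chr6:127125162-127152193 (GRCm38), was the most abundant gene of the 3 cycle subsets and measured 1019, 828 and 951 CPM in genetic controls, 1026, 1116 and 924 CPM in deficient cells and 1148, 964 and 961 CPM in animal controls. The libraries of the 3 groups were interleaved, and the narrow intervals of the log2 difference ran from -0.12 to 0.38 against genetic and from -0.25 to 0.25 against animal controls. Per kilobase, Ccnd2 stood at 106 CPM per kb, Cdk4 at 70.3, Cdkn2d at 64.7, E2f4 at 54.2, Cdc34 at 43.2 and Ccnd3 at 27.9. Ccnd3, cyclin D3, measured 322, 232 and 286 CPM, 214, 307 and 269 CPM, and 198, 155 and 219 CPM. Its animal controls were the lowest group, without overlap with the genetic controls (0.56 ± 0.20 on the log2 scale, adjusted p = 0.684) and with overlap with the deficient cells (0.47 ± 0.20, adjusted p = 0.401). Ccnd1, cyclin D1, was at most 3.37 CPM in any library and under 1 CPM in 6 of 9.

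Cdk4, the kinase of these cyclins at chr10:127063534-127067920, measured 194, 241 and 174 CPM, 218, 250 and 282 CPM, and 256, 195 and 244 CPM. The groups overlapped, and the 95% interval of the log2 difference from genetic controls was -0.10 to 0.71. Cdk6, its relative, was lower, at 4.40 to 21.3 CPM, and Cdk2, the partner of cyclins E and A, was at 8.03 to 51.4 CPM, both with overlap of all groups. Ccne1, cyclin E1, measured 0.0754, 0.0357 and 5.64 CPM in genetic controls, 10.4, 7.30 and 10.7 CPM in deficient cells and 3.52, 0.00457 and 9.86 CPM in animal controls. Its deficient libraries were steadily detected and lay above all genetic controls, with an adjusted p of 0.563, and overlapped with the animal controls. Cyclin E2 (Ccne2) reached 13.1 CPM and was under 1 CPM in 4 libraries.

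Inhibitors of these kinases were led by Cdkn2d (p19) and Cdkn1b (p27). Cdkn2d, an inhibitor of Cdk4 and Cdk6, measured 80.9, 93.8 and 92.8 CPM, 102, 98.5 and 151 CPM, and 63.4, 147 and 86.8 CPM. Its deficient libraries lay above the genetic controls by 0.37 ± 0.32 on the log2 scale (adjusted p = 0.757) and within the wide range of the animal controls. Cdkn1b, an inhibitor of the cyclin E and A kinases, measured 38.2, 42.5 and 49.8 CPM, 47.9, 50.1 and 45.7 CPM, and 48.3, 67.9 and 71.9 CPM. Animal controls 232614 and 432614 were its 2 highest libraries, and the difference of deficient cells from animal controls was -0.37 ± 0.27 (adjusted p = 0.677). Cdkn2c (p18) was at 1.94 to 12.9 CPM, with genetic controls below all animal controls (-1.41 ± 0.87 on the log2 scale, adjusted p = 0.827), and Cdkn1a (p21), the inhibitor that p53 induces, was at most 2.5 CPM and under 1 CPM in 6 of 9 libraries. Cdc34, the enzyme that passes ubiquitin to targets such as Cdkn1b, measured 88.6, 26.0 and 84.0 CPM, 55.3, 62.2 and 48.3 CPM, and 70.3, 104 and 72.6 CPM. Its deficient libraries were below all animal controls (-0.56 ± 0.45, adjusted p = 0.708) and within the range of the genetic controls.

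Of the E2F factors, E2f4, mainly a repressor in resting cells, was the highest at 95.6 to 179 CPM, with overlapping groups. E2f2, an activator, measured 31.2, 24.7 and 34.2 CPM in genetic controls, 53.0, 66.1 and 30.4 CPM in deficient cells and 58.9, 40.6 and 56.7 CPM in animal controls. Its genetic controls were low and did not overlap with the animal controls (-0.79 ± 0.36 on the log2 scale, adjusted p = 0.751), while deficient library 432614 was within the genetic range (0.67 ± 0.36, adjusted p = 0.55). E2f1, also an activator, measured 12.5, 0.141 and 0.029 CPM, 16.3, 17.1 and 0.0932 CPM, and 5.60, 26.5 and 9.29 CPM, with libraries near the lowest value in both YFP-positive groups. The activator E2f3 ranged from 0.216 to 18.5 CPM with overlap in each comparison. Over the 23 G1 control genes, 0 had an unadjusted p under 0.05 against genetic controls, 1 against animal controls and 1 between the controls (0%, 4.35% and 4.35%, beside 10.6%, 11.9% and 6.62% of all genes).

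**Figure D4:**
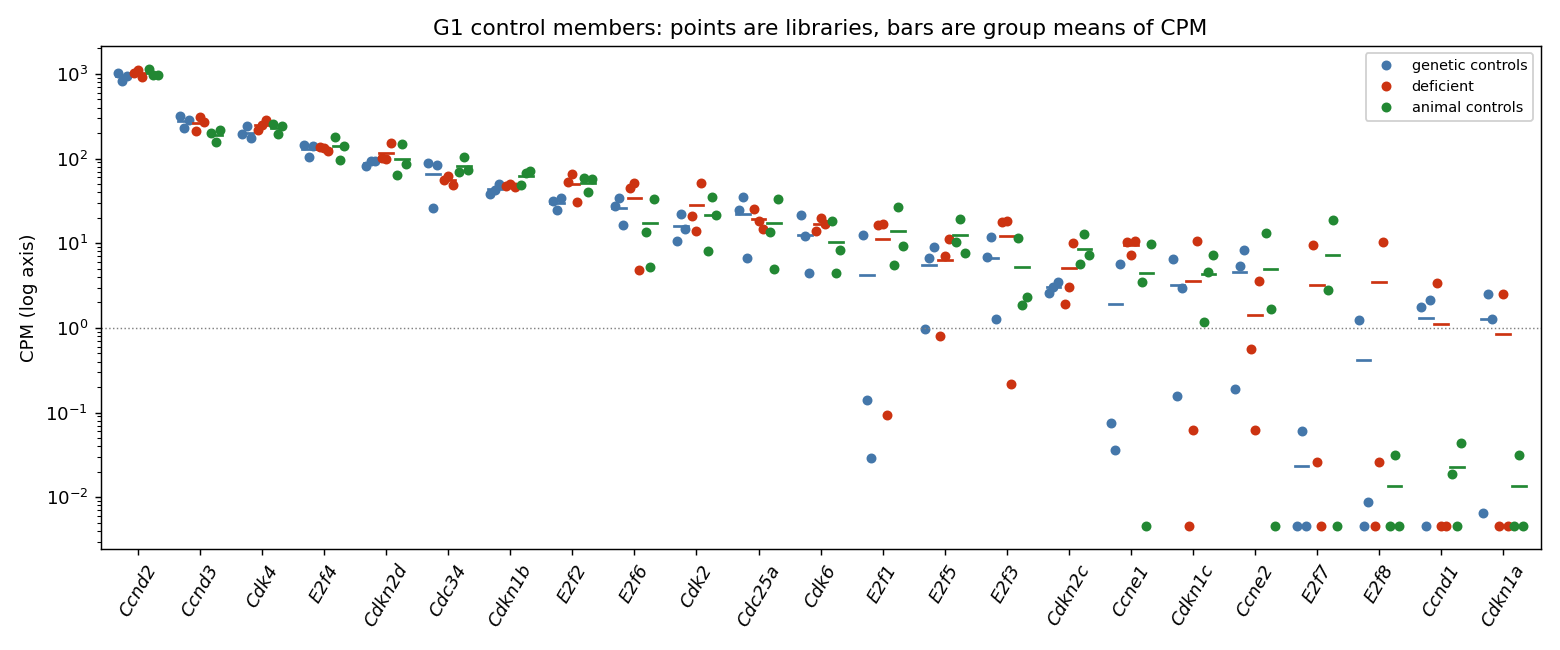
CPM (log axis) of the 23 G1 control genes in each library (points) with the group mean (bar), coloured by group. Ccnd2 stands near 1000 CPM in all 9 libraries, and 10 of the 23 genes fall below 1 CPM in at least 1 library.

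The mitotic cyclins and kinases were low and uneven in all groups. Cdk1, the mitotic kinase whose promoter is shown above, measured 0.0066, 24.2 and 8.80 CPM in genetic controls, 0.0248, 10.4 and 25.0 CPM in deficient cells and 8.44, 12.4 and 0.00457 CPM in animal controls. Each group held 1 library near the lowest value and 2 above 8 CPM. Ccnb1, its cyclin, measured 2.90, 19.6 and 25.9 CPM, 0.00457, 12.6 and 0.026 CPM, and 12.1, 0.00457 and 3.56 CPM, and Ccnb2 ranged from 0.0248 to 30.4 CPM. Ccna2, cyclin A2, measured 0.00457, 1.88 and 3.39 CPM, 5.03, 4.74 and 9.04 CPM, and 15.8, 15.8 and 0.00457 CPM. Its deficient libraries lay above the genetic controls, with an adjusted p of 0.723, and between the extremes of the animal controls. Mki67, the proliferation marker Ki-67, measured 7.58, 7.25 and 3.27 CPM, 13, 18.7 and 0.00457 CPM, and 1.11, 4.66 and 4.06 CPM. Its deficient libraries held both the 2 highest and the lowest of the 9 values, and no comparison passed (adjusted p = 0.821 for deficient against genetic controls, 0.911 against animal controls and 1 between the controls).

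Top2a, the topoisomerase that untangles sister chromatids, was one of the steadier mitosis genes. It measured 8.41, 31.3 and 32.0 CPM in genetic controls, 26.3, 54.7 and 51.3 CPM in deficient cells and 18.1, 10.8 and 19.6 CPM in animal controls. The deficient libraries lay above all animal controls, by 1.42 ± 0.60 on the log2 scale (adjusted p = 0.387), and overlapped with the genetic controls (1.04 ± 0.60, adjusted p = 0.579). Aurka, the kinase of the spindle poles, measured 0.95, 5.67 and 1.43 CPM, 4.98, 2.31 and 11.3 CPM, and 5.98, 0.00457 and 0.00457 CPM. Animal controls 232614 and 432614 were at the lowest value and 142114 was within the deficient range, so the groups overlapped (adjusted p = 0.351). Without animal control 142114, the library that makes the groups overlap, the limma adjusted p was 0.043. Aurkb and Plk1, kinases of the chromosome passenger complex and the spindle, were each under 1 CPM in 6 of 9 libraries and at most 8.94 and 6.31 CPM.

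Birc5 and Cenpk were above 1 CPM in the genetic controls and near the lowest value in most libraries of the other mice. Birc5, survivin of the chromosome passenger complex, measured 3.35, 7.40 and 9.53 CPM in genetic controls, 0.00457, 0.062 and 0.026 CPM in deficient cells and 0.00457, 0.00457 and 0.575 CPM in animal controls. Its genetic controls did not overlap with either group from the floxed mice. The limma adjusted p was 0.168 against deficient cells and 0.477 against animal controls, and 0.995 between deficient cells and animal controls. On log2(CPM + 1), a scale that gives less weight to the lowest values, Birc5 was lower in deficient cells than in genetic controls with an adjusted p of 0.0269. Cenpk, a subunit of the inner kinetochore, measured 1.19, 2.42 and 10.4 CPM, 0.00457, 0.00457 and 0.698 CPM, and 0.00789, 0.00457 and 0.0441 CPM. It had the same order of groups, with adjusted p of 0.298 for deficient and 0.52 for animal controls against genetic controls.

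Of other kinetochore and centromere genes, Cenpv, Cenpt, Cenpa and Cenpb are given here, and none passed the adjusted threshold. Cenpv measured 1.66, 0.00457 and 2 CPM in genetic controls, the lowest value of 0.00457 CPM in all 3 deficient libraries, and 6.81, 5.51 and 4.92 CPM in animal controls. The animal controls were above both YFP-positive groups, with an adjusted p of 0.0962 against deficient cells and 0.787 against genetic controls. Without genetic control 8619, which only enters the estimate of spread there, Cenpv reached an adjusted p of 0.0208 against animal controls, and on log2(CPM + 1) 0.0428. Cenpt, which links the centromere to the outer kinetochore, measured 16.7, 15.6 and 7.42 CPM, 44.2, 34.5 and 31.0 CPM, and 0.00457, 19.1 and 8.37 CPM. All 3 deficient libraries were above all 6 controls, with adjusted p of 0.895 against genetic and 0.443 against animal controls. Cenpa, the histone variant that marks centromeres, was steady at 21.4 to 42.5 CPM, with log2 differences of deficient cells of -0.15 ± 0.41 and 0.05 ± 0.41 from genetic and animal controls. Cenpb, which binds centromeric repeats, was 23.7, 32.6 and 32.3 CPM, 8.78, 32.9 and 4.94 CPM, and 19.0, 29.9 and 27.8 CPM. Deficient libraries 142114 and 432614 were its lowest values, and 232614 was its highest.

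Phosphatases and subunits of the anaphase-promoting complex did not pass the adjusted threshold either. Cdc25b, the phosphatase that activates Cdk1, measured 82.9, 69.2 and 42.6 CPM in genetic controls, 27.8, 18.1 and 45.2 CPM in deficient cells and 61.9, 61.6 and 65.9 CPM in animal controls. The deficient cells were below all animal controls (log2 difference -1.15 ± 0.39, adjusted p = 0.269, 95% interval -2.03 to -0.28), and their library 432614 overlapped with genetic control 8800 (-1.14 ± 0.39, adjusted p = 0.299). Cdc23, a subunit of the anaphase-promoting complex, measured 80.4, 76.7 and 71.7 CPM, 83.2, 180 and 189 CPM, and 69.3, 108 and 114 CPM. Its deficient cells were above all genetic controls by 0.89 ± 0.33 (adjusted p = 0.361), and deficient library 142114 was within the animal control range. Of the other subunits among the members, Cdc16 had log2 differences of -0.35 ± 0.36 and 0.26 ± 0.36 from genetic and animal controls, Cdc26 of 0.58 ± 0.36 and 0.42 ± 0.36, and Cdc27 of 0.02 ± 0.62 and 0.13 ± 0.62. Anapc5, a subunit outside the families, measured 259, 305 and 337 CPM, 362, 375 and 423 CPM, and 335, 332 and 205 CPM. All deficient libraries of Anapc5 were above all 6 controls (0.37 ± 0.20 and 0.44 ± 0.20, adjusted p = 0.552 and 0.421). For the other Anapc genes of this complex that were listed, deficient libraries overlapped with both control groups. These are Anapc1, Anapc2, Anapc4, Anapc7, Anapc10, Anapc11 and Anapc13. Cdc20, the activator of this complex, measured 0.739, 27.0 and 13.2 CPM, 16.9, 6.68 and 22.4 CPM, and 6.29, 0.566 and 1.29 CPM. Its deficient libraries were above all animal controls (adjusted p = 0.435) and overlapped with the genetic controls (adjusted p = 0.852). Cdc14b, a phosphatase of mitotic exit in yeast, measured 7.38, 0.0357 and 0.0703 CPM, 3.05, 9.34 and 7.09 CPM, and 25.7, 35.3 and 18.8 CPM. The animal controls were the highest group without overlap with the others (adjusted p = 0.723 against deficient cells and 0.417 against genetic controls), and genetic control 124 stood apart from the other 2. Without that library, the adjusted p of Cdc14b was 0.0339 for deficient cells and 0.0317 for animal controls, both higher than genetic controls.

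**Figure D5:**
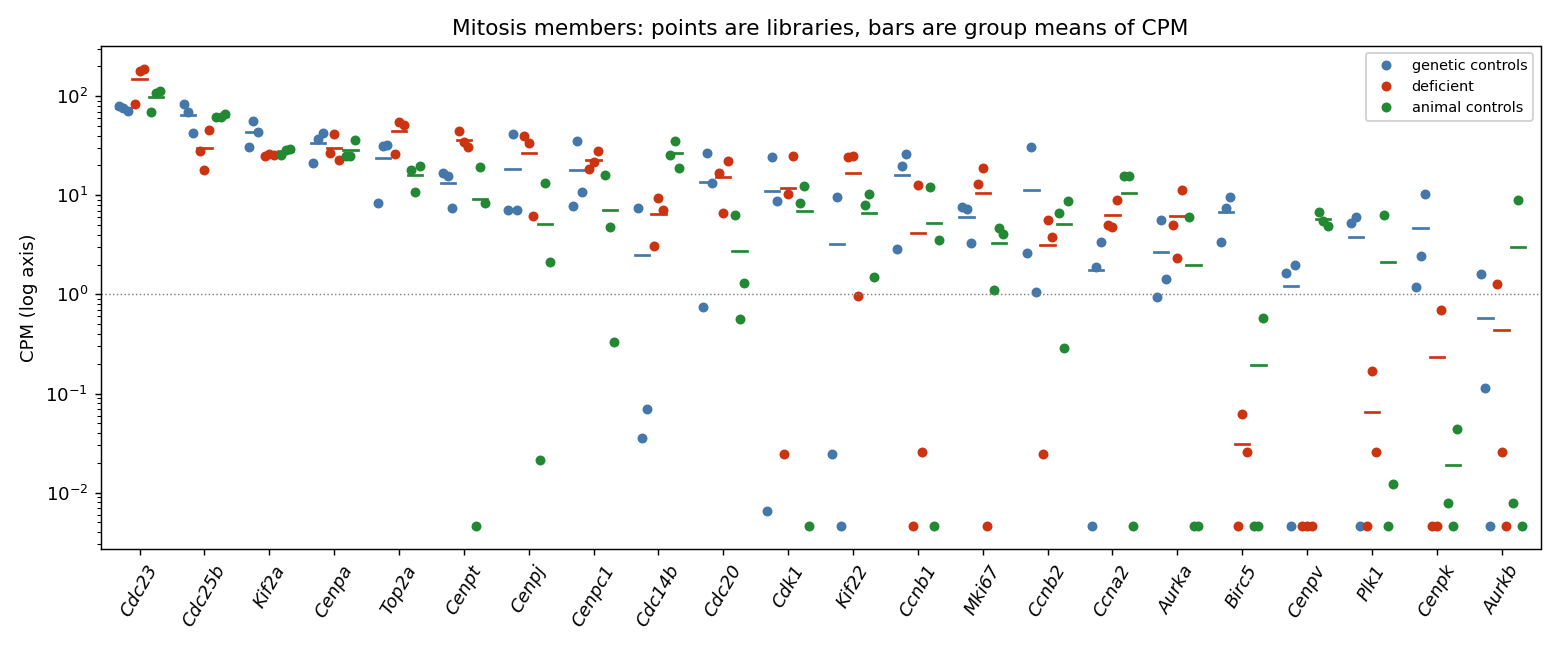
CPM (log axis) of a part of the 49 mitosis genes, picked by name, in each library (points) with the group mean (bar), coloured by group. Cdc25b and Top2a keep deficient cells and animal controls apart in opposite directions. Cdk1 spreads from near the lowest value to above 10 CPM within each group. Ccnb1 does so within deficient cells and within animal controls, and Mki67 within deficient cells alone.

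Of the 49 mitosis genes, 7 had an unadjusted p under 0.05 against genetic controls (3 higher and 4 lower in deficient cells), 6 against animal controls (4 higher and 2 lower) and 3 between the controls. These are 14.3%, 12.2% and 6.12% of the subset, beside 10.6%, 11.9% and 6.62% of all genes. Among spindle kinesins, Kif2a, which takes microtubules apart, measured 31.0, 55.9 and 43.8 CPM, 24.8, 26.4 and 25.5 CPM, and 25.6, 28.8 and 29.2 CPM. Both groups of the floxed mice were tight and lay below the genetic controls, with log2 differences of -0.73 ± 0.34 for deficient minus genetic (adjusted p = 0.491) and 0.61 ± 0.34 for genetic minus animal control (adjusted p = 0.795). Kif11, the motor that separates spindle poles, was under 1 CPM in 7 of 9 libraries and Kif2c and Kif4 in 8 of 9.

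The 38 genes that share only the name pattern include some of the most abundant members. Cdc42, the small GTPase of cell polarity and actin, was the most abundant per kilobase of all 123 members, at 296 CPM per kb. It measured 847, 1042 and 998 CPM in genetic controls, 808, 672 and 745 CPM in deficient cells and 903, 800 and 1079 CPM in animal controls. The deficient cells were below all genetic controls (log2 difference -0.37 ± 0.13, adjusted p = 0.306) and overlapped with the animal controls (-0.32 ± 0.13, adjusted p = 0.376). Cdc40, a splicing factor, measured 86.5, 72.5 and 75.0 CPM, 131, 119 and 91.4 CPM, and 57.5, 72.4 and 45.0 CPM. Its deficient libraries were the highest of all 9, above animal controls by 0.97 ± 0.26 (adjusted p = 0.147) and above genetic controls by 0.53 ± 0.26 (adjusted p = 0.5). Cdk17, a kinase of the PCTAIRE group, measured 332, 220 and 234 CPM, 177, 95.9 and 183 CPM, and 134, 70.8 and 135 CPM. Its genetic controls were above both groups of the floxed mice, by 1.25 ± 0.33 over the animal controls (adjusted p = 0.415) and with a difference of -0.82 ± 0.33 for deficient cells (adjusted p = 0.418).

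Cdk9, the kinase that releases paused RNA polymerase, measured 149, 182 and 134 CPM, 104, 107 and 120 CPM, and 117, 214 and 190 CPM. Its deficient cells were tight and below all genetic controls (-0.48 ± 0.24, adjusted p = 0.528), and animal control 142114 fell within their range (-0.61 ± 0.24, adjusted p = 0.368). Kif7, a kinesin of Hedgehog signalling, measured 1.95, 6.95 and 6.10 CPM, 23.8, 17.0 and 10.3 CPM, and 2.63, 0.0317 and 0.00457 CPM. Its deficient libraries were above all 6 controls, with adjusted p of 0.819 against genetic and 0.147 against animal controls, and 0.0219 against animal controls without animal control 142114. Kif13a, a transport kinesin, measured 7.76, 2.20 and 0.947 CPM, 0.012, 0.062 and 1.93 CPM, and 28.3, 18.3 and 6.15 CPM. Its animal controls were above all deficient libraries (adjusted p = 0.147, and 0.0434 without deficient library 432614). Kif3c, a subunit of a transport kinesin, was at 0.893, 0.213 and 30.4 CPM in animal controls and between 11.1 and 25.9 CPM elsewhere, with an adjusted p of 0.407 for deficient against animal controls and 0.0494 without animal control 432614. Of these 38 genes, 3 had an unadjusted p under 0.05 against genetic controls, all lower in deficient cells (7.89%, beside 10.6% of all genes). Against animal controls there were 7, 3 higher and 4 lower (18.4%, beside 11.9%), and between the controls 3 (7.89%, beside 6.62%).

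Genes of the same pathways outside the families were listed by function, and 2 of them passed the test. Of 46 measured replication genes (48 listed), 0 passed against genetic controls or between the controls and 1, Dbf4, passed against animal controls. Unadjusted p under 0.05 was found for 5, 9 and 3 of the 46 in deficient against genetic, deficient against animal and genetic against animal controls (10.9%, 19.6% and 6.52%, beside 10.6%, 11.9% and 6.62% of all genes). Of 66 measured mitosis genes (70 listed), 0 passed in any comparison, and 8, 8 and 7 had an unadjusted p under 0.05 (12.1%, 12.1% and 10.6%, beside 10.6%, 11.9% and 6.62% of all genes). Of 30 G1 control genes, 1, Slfn2, passed against genetic controls and 0 passed in the other comparisons, with 8, 7 and 1 at an unadjusted p under 0.05 (26.7%, 23.3% and 3.33%, beside 10.6%, 11.9% and 6.62% of all genes).

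Dbf4, the activating subunit of the Cdc7 kinase, measured 23.5, 23.6 and 34.3 CPM in genetic controls, 18.0, 22.7 and 24.0 CPM in deficient cells and 1.67, 0.59 and 1.98 CPM in animal controls. Both YFP-positive groups were above all animal controls, and the deficient cells were higher than the animal controls by 4.10 ± 0.65 on the log2 scale (adjusted p = 0.0173). The genetic controls exceeded the animal controls by 4.42 ± 0.65 (adjusted p = 0.0718), and deficient cells and genetic controls overlapped (-0.32 ± 0.65, adjusted p = 0.922). With the mouse as a fixed replicate block, the adjusted p of Dbf4 against animal controls was 0.324, and it was 0.0729 without deficient library 232614, 0.0722 without 432614 and 0.057 without 142114.

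Slfn2, a schlafen protein linked to T cell quiescence, measured 946, 896 and 743 CPM, 574, 576 and 578 CPM, and 611, 582 and 635 CPM. It fell by 0.57 ± 0.10 on the log2 scale in deficient cells against genetic controls (adjusted p = 0.0383), and the animal controls of the same mice were also below all genetic controls, with a difference of 0.49 ± 0.10 for genetic minus animal control (adjusted p = 0.232). The call was lost without any single library other than genetic control 8800, at an adjusted p of 0.0615 to 0.151, at 0.5 without the mean-variance trend and at 0.116 with only the 6 libraries compared. Pttg1, securin, which guards sister chromatid cohesion, measured 43.9, 53.0 and 41.6 CPM, 8.30, 8.54 and 16.7 CPM, and 10.3, 9.87 and 5.68 CPM. Its genetic controls again lay above both groups of the floxed mice, with differences of -2.12 ± 0.49 for deficient minus genetic (adjusted p = 0.104) and 2.46 ± 0.49 for genetic minus animal control (adjusted p = 0.217).

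Other pathway genes with low p missed the adjusted threshold. Zwilch, a kinetochore protein of the spindle checkpoint, measured 0.959, 0.516 and 0.309 CPM in genetic controls, 0.0437, 0.026 and 0.314 CPM in deficient cells and 17.9, 13.8 and 5.33 CPM in animal controls. The animal controls were above both YFP-positive groups, with an adjusted p of 0.0583 against deficient cells, 0.0273 without the mean-variance trend and 0.019 on log2(CPM + 1). Cks2, a small protein that binds cyclin-dependent kinases, measured 6.08, 5.03 and 5.42 CPM, 2.25, 2.14 and 3.59 CPM, and 12.9, 13.4 and 13.4 CPM. None of its groups overlapped, with log2 differences of -2.36 ± 0.66 for deficient minus animal control (adjusted p = 0.17, and 0.0122 without the trend) and -1.09 ± 0.66 for deficient minus genetic control (adjusted p = 0.608). Mad2l2, an inhibitor of the anaphase-promoting complex and a polymerase subunit, measured 19.0, 22.9 and 11.1 CPM, 55.4, 62.7 and 49.0 CPM, and 34.9, 34.2 and 20.2 CPM. Its deficient libraries were the highest of the 9, with a log2 difference of 1.71 ± 0.40 from genetic controls (adjusted p = 0.108). Smc3, a cohesin subunit, measured 122, 104 and 112 CPM, 176, 142 and 173 CPM, and 88.4, 58.2 and 90.3 CPM. The deficient libraries of Smc3 were above all 6 controls, by 1.07 ± 0.22 over animal controls (adjusted p = 0.0683). Rbl1 (p107), a pocket protein that binds E2F, measured 125, 101 and 86.2 CPM, 24.3, 52.7 and 23.5 CPM, and 48.2, 102 and 113 CPM. Deficient cells were below all genetic controls (-1.73 ± 0.42, adjusted p = 0.119) and overlapped with animal control 142114 (-1.40 ± 0.42, adjusted p = 0.206). The other pocket proteins went in opposite directions. Deficient libraries of Rb1 (197, 148 and 169 CPM) were above all 6 controls (adjusted p = 0.447 against genetic and 0.34 against animal controls). Those of Rbl2 (126, 135 and 98.2 CPM) were below all 6 (adjusted p = 0.163 and 0.207).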

How the data were processed

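RNA was sequenced from sorted Treg cells in 9 libraries, 3 per group, each library of a group bearing its own mouse number. RNA was extracted with the RNeasy plus micro kit and made into libraries with the SMARTer Ultra Low Input v3 and Nextera XT kits, per the labels' protocols; these kits do not mark strand. The submitters' processing notes name bcl2fastq 1.8.4, STAR 2.4.0h, the build mm10 and limma. How reads were counted, with which annotation and normalization, was not given in the sources used here. Values in the deposited table are log2 CPM, which the authors had normalized, since each library sums to between 999252 and 999256 CPM and all libraries share the lowest value (0.00457 CPM). Every library also has the same median over all genes (18.1 CPM) and nearly the same share of genes under 1 CPM (23.5% to 23.6%), so quantile normalization was read from the values. A low CPM value is thus set by the rank of the gene in its library. Between 8.0% and 11.4% of genes were at the lowest value in a library. Depth cannot be recovered, so no counting interval is given.

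From these values, 4 exact duplicate rows of 13702 were dropped. A limma-trend model of the 3 group means (limma 3.58.1 in R 4.3.3) was fitted over all 13698 genes and 9 libraries, without filter or pseudocount, with two-sided tests whose p-values were adjusted over all genes by the Benjamini-Hochberg method (FDR 0.05). The fit was tested on simulated data. Standard errors and 95% intervals come from this fit. Members and lists were chosen with earlier results of these data known. Genes named in the text were a fixed set of well known family members and the 4 with the lowest p per subset and comparison. The pathway genes called or with the 2 lowest p, and Zbtb7b and Zbtb7a, were named as well. A few further members, Anapc genes, Rb1 and Rbl2 are named to describe a family or complex and were chosen after their values were seen. Gene coordinates and exon lengths came from GENCODE M21 (GRCm38), which held 123 of 123 members, and 7 members have a pseudogene of their name there (Ccnd3, Ccnb1, Ccnb2, Kif22, Kif4, Pcna and Tyms), so their reads may be shared. Figures were drawn with matplotlib 3.10.9.

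Deficient cells and animal controls came from the same mice, per the series' design. Deviations of the same mouse correlated at 0.0483, 0.0202 and 0.017 over 7550 genes, against -0.0304 to 0.00803 for different mice. The mouse was tried as a replicate block, as were no trend, a mean of at least 1 CPM, log2(CPM + 1), only the 6 libraries compared and leaving out each library.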

Additional observations from a re-analysis of the deposited data

How the results depend on the processing

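The number of members called against genetic controls was 1 (Birc5) on log2(CPM + 1) and 0 to 1 when a library was left out. Against animal controls it was 1 (Cenpv) on log2(CPM + 1) and 0 to 2 when a library was left out, and between the controls 0 to 1. Under the other alternatives run, the replicate block included, 0 members were called in each comparison. For Aurka, Cdc14b, Cenpv, Kif7, Kif13a and Kif3c, an adjusted p without a single library is given above. In each case this was the only omission that crossed the threshold in that comparison. These omissions were singled out after the results were seen and are no separate test. Genes called over the whole table depended more on the fit. Against genetic controls they numbered 119, 22 with only the 6 libraries compared and 48 to 93 when a library was left out; without the trend there were 85, of which 46 were higher and 39 lower in deficient cells, against 46 and 73. Against animal controls there were 122, 52 with only the 6 libraries compared, 0 with the mouse as a fixed replicate block (148 with it as a random term) and 58 to 115 when a library was left out. Between the controls there were 5, 32 without the trend, 3 with only the 6 libraries compared and 4 to 10 when a library was left out. Of 2875 alternative values for 201 single gene results, 2845 kept their side of the threshold, 15 lost and 15 gained a call, and no call changed sign; the causes were not tested. Depth is unknown, and how large a difference could be detected in the members was not tested.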
